A study of Mus musculus with 4 samples.

Results

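The enzymes described here make the building blocks of RNA and DNA, together with the folate-dependent one-carbon units that this synthesis uses. The list of 38 mouse genes was fixed by name in 5 groups, deoxynucleotide supply, purine, pyrimidine, one-carbon and salvage, and the rule uses no measured value, but the list was drawn up with earlier results of these data known, so it is not independent of them. Of the 38, 35 had a row among the 23450 genes of the deposited tables, all 35 passed the filter on low values, and 3 were not analysed here. The material was RNA of hematopoietic stem cells (HSCs) that had been sorted out of mouse bone marrow, sequenced as 2 libraries of long-term HSCs (LT-HSC) and 2 of short-term HSCs (ST-HSC), each made from 2000 cells. The LT-HSC were CD48-, CD150+, CD34- and CD9high, and the ST-HSC were CD48-, CD150+ and CD9low with no CD34 gate given. For the mice, strain, age and sex were not given in the sources used here. Nothing there says that replicates stem from different animals, so p-values reflect the spread between libraries alone, and that spread may be technical.

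Purines are built step by step on phosphoribosyl pyrophosphate, and pyrimidines are built as a ring that is joined to the same sugar phosphate afterwards. Ribonucleotide reductase turns ribonucleotides into deoxynucleotides, thymidylate synthase adds the methyl group of thymine, and kinases and phosphatases trim the pools. Salvage enzymes recycle bases and nucleosides. Transcripts of ribonucleotide reductase subunit M2 and thymidylate synthase are textbook S phase transcripts, and most HSCs in adult marrow are not dividing.

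Levels are given as CPM, reads of a gene per 1000000 reads of the library, and differences as log2 fold changes of CPM + 1, positive where LT-HSC was higher. Totals of 13062848 to 16142666 reads were recovered per library. All 8 HSC marker genes on the list checked (among them Mecom, Hlf and Procr) had reads in every library, and Pax5 of B cells, Cd3e and Cd3d of T cells, Ctsg of granulocytes and Lepr of stromal cells had none in any. Summed over a list of 10 granulocyte genes, of which 2 to 5 were unread per library, the level was 269 to 344 CPM in LT-HSC and 272 to 662 CPM in ST-HSC. Over 5 megakaryocyte genes, of which up to 2 were unread, it was 79.3 to 95.7 CPM in LT-HSC and 193 to 256 CPM in ST-HSC. Over 7 erythroid genes, of which 1 was unread per library, it was 264 to 314 CPM in LT-HSC and 334 to 431 CPM in ST-HSC. The sums over 5 monocyte, 6 B cell and 6 endothelial or stromal genes with a row stood at 164 to 241, 109 to 219 and 72.3 to 178 CPM over the 4 libraries. All 22 replication and mitosis genes with a row had reads in every library. Their sum was 1725 to 1929 CPM in LT-HSC and 3053 to 3625 CPM in ST-HSC. Both LT-HSC libraries lay below both ST-HSC libraries for 15 of them (68.2%), beside 17.5% of all tested genes. In this list the mitotic genes Mki67 and Top2a had log2 fold changes of -2.64 ± 0.63 (SE) and -2.16 ± 0.30 (SE), the replication clamp gene Pcna -0.34 ± 0.20 (SE) and the helicase gene Mcm5 0.08 ± 0.26 (SE). The part of these other genes in the results below was not tested. In sorted populations a smaller number of cells that carry a transcript and less transcript per cell cannot be told apart.

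None of the 35 enzymes passed the test between LT-HSC and ST-HSC, and the groups overlapped for 23 of them. At an adjusted p under 0.05 (limma, adjusted over all 12569 tested genes) 0 of 35 members were called, against a background of 0% of tested genes, and the smallest adjusted p of a member was 0.716. Before adjustment, 1 member was higher (Shmt1) and 1 lower (Umps) at a limma p under 0.05, where 2.87% and 3.6% of all tested genes (361 and 453) were higher and lower. Limma-voom on the recovered reads also called 0 genes, with 280 higher and 306 lower before adjustment. Both LT-HSC libraries lay below both ST-HSC libraries for 7 of 35 members (20%), near the 17.5% of all tested genes. They exceeded both for 5 of 35 (14.3%), near the 16.2% of all tested genes. The median log2 fold change of the members was -0.20, from -0.29 to -0.03 with 1 library left out, beside -0.01 over all tested genes. For 30 of the 35 members (85.7%) the 2 libraries of at least 1 group differed by more than the group means did, which was so for 78.2% of tested genes. The 5 members with a smaller replicate difference were Umps, Shmt1, Dtymk, Paics and Ctps2.

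**Figure D1:**
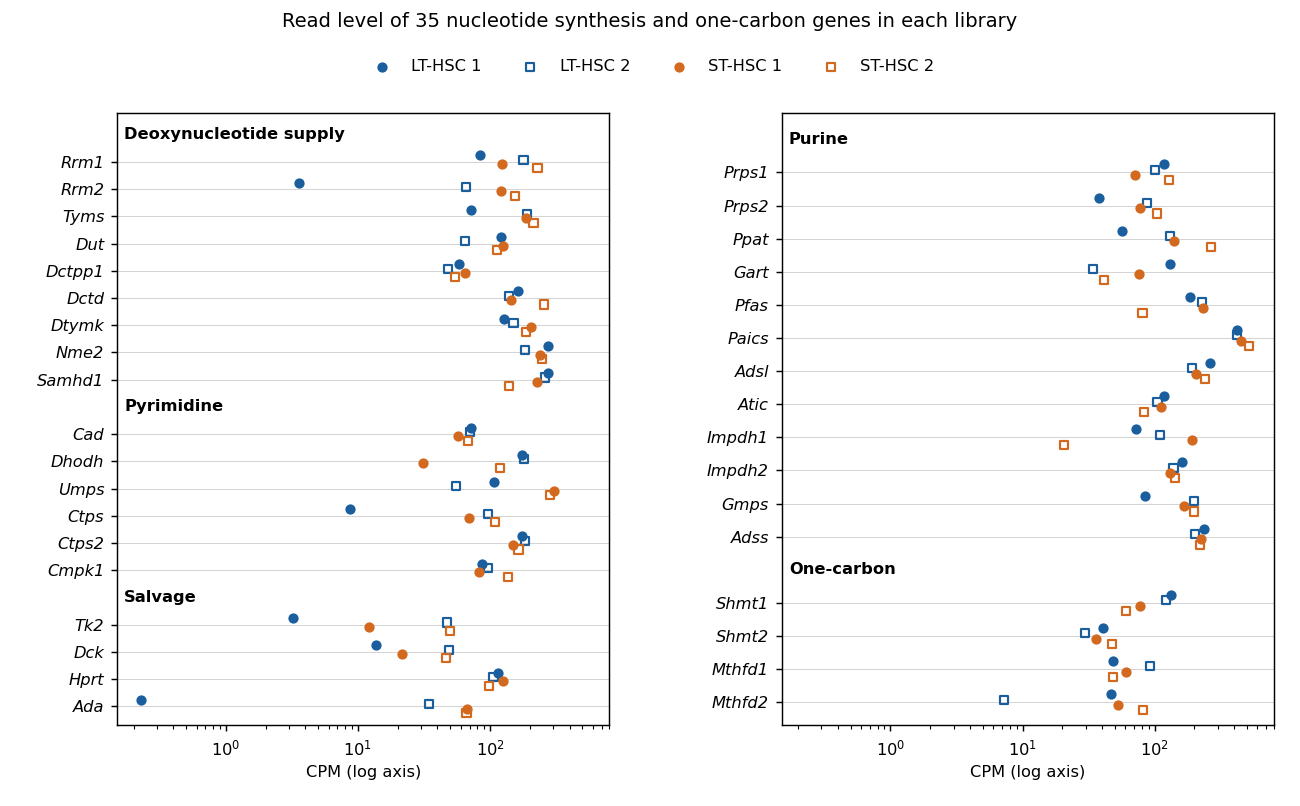
CPM on a log axis for each of the 35 genes, with 1 point per library (blue LT-HSC, orange ST-HSC, filled circles replicate 1, open squares replicate 2, shifted vertically for legibility). Ada, Rrm2 and Ctps sit far to the left in LT-HSC 1 alone, and Umps separates both LT-HSC libraries (55.0 and 106 CPM) from both ST-HSC libraries (286 and 305 CPM).

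The members with the lowest fold changes among those whose groups did not overlap were Ada, Rrm2 and Umps, one each from salvage, deoxynucleotide supply and pyrimidine synthesis, and their promoters are shown for that reason. The windows hold the 200 bases before the RefSeq start site, read 5′ to 3′ in the direction of the gene, from the GRCm38.p6 table, at chr2:163750240-163750439 on the minus strand, chr12:24708054-24708253 on the plus strand and chr16:33967039-33967238 on the minus strand. Capitals mark the letters CCAAT or their reverse complement, the core of the box bound by NF-Y.
Ada: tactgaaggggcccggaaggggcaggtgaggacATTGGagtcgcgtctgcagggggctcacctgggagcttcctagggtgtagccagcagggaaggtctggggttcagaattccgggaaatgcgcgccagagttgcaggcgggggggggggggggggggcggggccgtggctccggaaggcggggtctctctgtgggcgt
Rrm2: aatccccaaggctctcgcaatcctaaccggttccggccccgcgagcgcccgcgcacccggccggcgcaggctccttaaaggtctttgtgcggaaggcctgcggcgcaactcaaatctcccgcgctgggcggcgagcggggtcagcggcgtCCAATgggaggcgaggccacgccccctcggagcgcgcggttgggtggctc
Umps: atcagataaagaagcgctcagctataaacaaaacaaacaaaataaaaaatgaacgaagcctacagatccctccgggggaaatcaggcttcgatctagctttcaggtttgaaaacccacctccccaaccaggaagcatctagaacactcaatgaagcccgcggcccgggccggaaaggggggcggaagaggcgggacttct

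Both Ada and Rrm2 held 1 CCAAT match, starting 167 and 50 bases before the start, and the Umps window held none. Over the 250 bases before the start, on both strands, 14 of 33 members with a RefSeq promoter (42.4%) held CCAAT, against 37.5% of all 27025 genes with a window in the table. The E-box letters CACGTG, which Myc and Max can bind, were found for 5 of 33 members (15.2%), Atic, Dtymk, Impdh2, Paics and Tyms, against 6.86% of genes. An E2F form (TTTCCCGC, TTTCGCGC, TTTGCCGC or TTTGGCGC) was found for 1 of 33 members, Ppat (3.03%), against 2.16% of genes. No motif contains another. These matches are descriptions of letters in a window and say nothing of binding.

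Deoxynucleotide supply had a median log2 fold change of -0.42 (-0.44 to -0.26 with 1 library left out), with 8 of 9 members below 0, beside 6387 of all 12569 tested genes. None of the 9 passed (smallest adjusted p = 0.782 by limma), 2 were under both ST-HSC libraries (22.2%, beside 17.5% of all tested genes) and 1 was over them (11.1%, beside 16.2%). Rrm2, the small subunit of ribonucleotide reductase that is made for S phase, stood at 3.59 and 65.6 CPM in LT-HSC 1 and 2 and at 120 and 155 CPM in ST-HSC 1 and 2. Both LT-HSC libraries were lower, but they lay 18.3-fold apart, with 47 reads in LT-HSC 1 against 1061 in LT-HSC 2. The log2 fold change was -2.97 ± 1.31 (SE, adjusted p = 0.782 by limma), and -1.04 without LT-HSC 1. The proliferation gene Mki67 was also lowest in LT-HSC 1, with 17.5 CPM. LT-HSC 2 had 58.2 CPM of it, and ST-HSC 1 and 2 had 190 and 223 CPM. The list of 22 replication and mitosis genes went the other way between the LT-HSC libraries. Its sum was higher for LT-HSC 1 (1929 CPM) than for LT-HSC 2 (1725 CPM). The median log2 difference of its genes was 0.17, positive where LT-HSC 1 was higher. The part of Mki67 or of this list in the Rrm2 difference was not tested. Rrm1, the large subunit of the same enzyme, stood at 83.6 and 179 CPM in LT-HSC against 123 and 229 CPM in ST-HSC, so the groups overlapped (-0.45 ± 0.51 SE).

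The thymidylate branch showed smaller differences. Tyms, thymidylate synthase, was at 72.1 and 190 CPM in LT-HSC against 189 and 213 CPM in ST-HSC. Only LT-HSC 1 stood apart, and the log2 fold change of -0.77 ± 0.51 (SE) was -0.07 without it. Dtymk, the kinase that makes dTDP from dTMP, was at 127 and 150 CPM in LT-HSC against 205 and 188 CPM in ST-HSC. All 4 libraries kept to their group, at means of 139 ± 16.8 and 197 ± 12.2 CPM (SD, n = 2 each) and a log2 fold change of -0.51 ± 0.26 (SE, adjusted p = 0.815 by limma). Dut, which clears dUTP and yields the dUMP that Tyms uses, was low in LT-HSC 2 alone at 64.6 CPM, against 112 to 125 CPM in the other 3 libraries. Dctd, the dCMP deaminase that also feeds dUMP, was high in ST-HSC 2 alone at 256 CPM, against 140 to 162 CPM elsewhere.

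Members that trim or balance the pools stood closer together or the other way round. Samhd1, which breaks down deoxynucleotides in resting cells, was at 275 and 262 CPM in LT-HSC against 226 and 140 CPM in ST-HSC, and was the only member of this group above 0 (0.59 ± 0.30 SE, adjusted p = 0.816 by limma). Neither LT-HSC library reached down to an ST-HSC library, although the 2 ST-HSC libraries differed by more than the groups. Dctpp1, a dCTP pyrophosphatase, overlapped at 47.9 to 57.7 CPM in LT-HSC and 54.0 to 64.4 CPM in ST-HSC. Nme2, a nucleoside diphosphate kinase, overlapped at 183 to 274 CPM and 240 to 249 CPM. Its value is uncertain because 573 of its exonic bases are shared with a readthrough gene in GENCODE M21.

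Purine synthesis had a median log2 fold change of 0.07 (-0.14 to 0.22 with 1 library left out). In this group 7 of 12 members were above 0, beside 6182 of all 12569 tested genes. Of the 12, 2 were under both ST-HSC libraries (16.7%, beside 17.5% of all tested genes) and 0 were over both (beside 16.2%). None of the 12 passed (smallest adjusted p = 0.81 by limma). Ppat, the amidotransferase that commits phosphoribosyl pyrophosphate to the purine ring, had the lowest value. It stood at 56.3 and 131 CPM in LT-HSC against 139 and 267 CPM in ST-HSC. Its log2 fold change was -1.16 ± 0.55 (SE, adjusted p = 0.81 by limma), and -0.56 without LT-HSC 1. The groups did not overlap, but LT-HSC 2 and ST-HSC 1 nearly touched. Paics, which catalyses a pair of later steps, was at 422 and 417 CPM in LT-HSC against 453 and 513 CPM in ST-HSC. Its groups did not overlap either, at a far smaller distance (-0.20 ± 0.16 SE). The 2 genes start on opposite strands 276 bases apart in RefSeq, and their exons overlap by 272 bases in GENCODE M21, so that reads there cannot be assigned if counting ignored strand.

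The other purine enzymes overlapped between the groups. Pfas, which acts in the middle of the pathway, had the highest log2 fold change of the 12, 0.59 ± 0.54 (SE), at 186 and 228 CPM in LT-HSC against 230 and 80.9 CPM in ST-HSC. Only ST-HSC 2 stood apart, and without it the value was -0.16. Gart, a trifunctional enzyme, was at 131 and 34.0 CPM in LT-HSC against 76.0 and 41.0 CPM in ST-HSC. Its exons overlap those of a gene model on the other strand, Gm15964, by 676 bases. That model was at 118 and 108 CPM in LT-HSC against 153 and 112 CPM in ST-HSC, so the Gart values are uncertain if counting ignored strand. Adsl, which splits off fumarate, was at 190 to 261 CPM in LT-HSC and 205 to 241 CPM in ST-HSC. Atic, which closes the ring, was at 105 to 118 CPM and 82.6 to 112 CPM. For each of these 4 enzymes the replicates differed by more than the group means.

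At the branch point where IMP becomes AMP or GMP, the 2 groups overlapped throughout, most widely for Impdh1. Adss, of the AMP branch, was at 202 to 238 CPM in LT-HSC and 220 to 225 CPM in ST-HSC (-0.02 ± 0.22 SE). Impdh2, the main IMP dehydrogenase of dividing cells, was at 139 to 161 CPM and 130 to 143 CPM (0.13 ± 0.27 SE). Impdh1, its isozyme, was at 72.7 and 110 CPM in LT-HSC against 191 and 20.5 CPM in ST-HSC. Its ST-HSC libraries lay 9.32-fold apart around both LT-HSC libraries, and its fold change took either sign, -1.09 without ST-HSC 2 and 2.07 without ST-HSC 1. Gmps, the GMP synthetase, was low in LT-HSC 1 alone, at 83.8 CPM against 166 to 200 CPM. The phosphoribosyl pyrophosphate synthetases also overlapped, with Prps1 at 101 to 117 CPM in LT-HSC and 71.3 to 128 CPM in ST-HSC, and Prps2 at 37.8 to 87.4 CPM and 77.4 to 105 CPM.

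Pyrimidine synthesis held the member with the smallest p-value and neighbouring steps with opposite signs. Umps, the bifunctional enzyme that makes UMP from orotate, was at 106 and 55.0 CPM in LT-HSC against 305 and 286 CPM in ST-HSC. Both LT-HSC libraries were far below both ST-HSC libraries, at means of 80.7 ± 36.3 and 296 ± 13.6 CPM (SD, n = 2 each), 3.66-fold lower. The log2 fold change was -1.94 ± 0.39 (SE), between -2.40 and -1.47 with 1 library left out, and the adjusted p was 0.716 by limma. Dhodh, the mitochondrial enzyme that makes orotate just before, was at 176 and 182 CPM in LT-HSC against 31.2 and 119 CPM in ST-HSC. Its LT-HSC libraries were both higher and close together, while the ST-HSC libraries lay 3.82-fold apart (1.53 ± 0.67 SE, adjusted p = 0.782 by limma, and 0.58 without ST-HSC 1). Umps exons overlap 213 bases of an antisense gene model in GENCODE M21.

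The first and the last steps differed less. Cad, the trifunctional enzyme that starts the pathway, was at 72.3 and 70.7 CPM in LT-HSC against 56.9 and 68.1 CPM in ST-HSC, with LT-HSC above both by less than the replicate difference (0.20 ± 0.38 SE). Ctps2, a CTP synthase, was at 176 and 183 CPM in LT-HSC against 150 and 164 CPM in ST-HSC (0.19 ± 0.24 SE). Ctps, its isozyme, was at 8.71 and 95.7 CPM in LT-HSC against 68.9 and 109 CPM in ST-HSC. Only LT-HSC 1 was low, and the log2 fold change of -1.52 ± 1.16 (SE) was 0.14 without it. Cmpk1, the UMP and CMP kinase, overlapped at 87.2 to 95.7 CPM and 82.0 to 137 CPM. The median of the 6 members was -0.01, and 0.01 with median-of-ratios scaling. Of the 6, 3 lay above both ST-HSC libraries (50%, beside 16.2% of all tested genes) and 1 below (16.7%, beside 17.5%). Among the 3 above, Cad and Dhodh had replicates that differed by more than the groups.

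**Figure D2:**
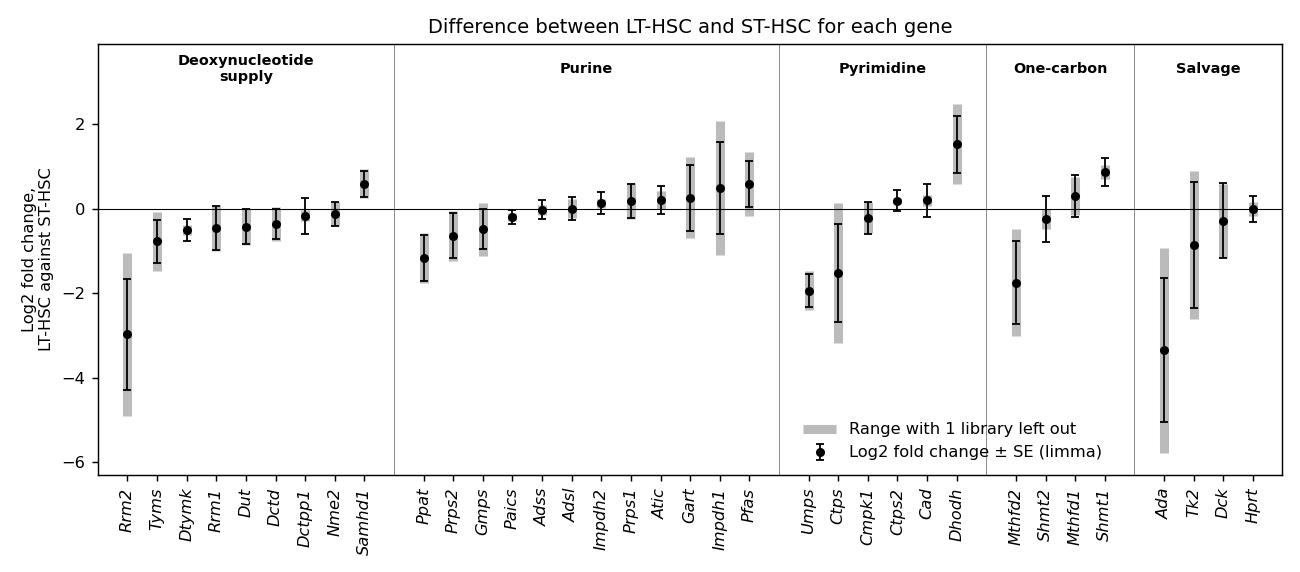
Log2 fold change of CPM + 1 between LT-HSC and ST-HSC for each gene (black points, bars 1 SE from limma), sorted within the 5 groups, with grey bars for the range over the 4 fits that leave out 1 library. Over these fits Umps ranges from -2.40 to -1.47 and Shmt1 from 0.70 to 1.05, whereas the grey bars of 18 genes reach both sides of 0.

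One-carbon enzymes split by gene, with a median of 0.03 over 4 members. Shmt1, the cytosolic serine hydroxymethyltransferase that loads folate with a one-carbon unit from serine, was at 133 and 122 CPM in LT-HSC against 77.8 and 61.1 CPM in ST-HSC. All 4 libraries kept to their group, at means of 127 ± 7.92 and 69.4 ± 11.8 CPM (SD, n = 2 each). The log2 fold change was 0.88 ± 0.33 (SE, adjusted p = 0.767 by limma). Smcr8, whose exons overlap 184 bases of Shmt1 on the other strand, was at 50.0 and 38.9 CPM in LT-HSC against 80.5 and 37.3 CPM in ST-HSC. Shmt2, the mitochondrial isozyme, overlapped at 29.5 to 40.9 CPM and 35.8 to 47.8 CPM. Mthfd2, a mitochondrial folate dehydrogenase typical of proliferating cells, was at 46.4 and 7.18 CPM in LT-HSC against 52.4 and 81.2 CPM in ST-HSC. Here LT-HSC 2 was the library that stood apart (-1.75 ± 0.99 SE, adjusted p = 0.831 by limma, and -0.48 without it). Mthfd1, the cytosolic trifunctional enzyme, was at 48.4 and 92.1 CPM in LT-HSC against 60.3 and 48.1 CPM in ST-HSC.

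Salvage genes had a median of -0.57 over 4 members, which was 0.27 with LT-HSC 1 left out and -1.89 with LT-HSC 2 left out. Ada, adenosine deaminase, was at 0.229 and 34.7 CPM in LT-HSC against 66.4 CPM in both ST-HSC libraries. LT-HSC 1 held 3 reads of it and LT-HSC 2 held 561. The log2 fold change was -3.35 ± 1.70 (SE, adjusted p = 0.815 by limma), and -0.92 without LT-HSC 1. Ada is strongly made in lymphoid cells. Over 7 T and NK cell genes the sum was 23.9 and 105 CPM in LT-HSC beside 83.1 and 112 CPM in ST-HSC. It was lowest in LT-HSC 1 as well, with 3 or 4 of the 7 unread per library and Cd3e and Cd3d at 0 in all. The sum over 6 B cell genes was instead highest in LT-HSC 1, at 219 and 130 CPM in LT-HSC beside 147 and 109 CPM in ST-HSC. Of the 6, 2 to 5 were unread per library. The part of either list in the Ada difference was not tested. Tk2, the mitochondrial thymidine kinase, was at 3.21 and 47.1 CPM in LT-HSC against 12.1 and 49.7 CPM in ST-HSC. Dck, deoxycytidine kinase, was at 13.6 and 48.6 CPM in LT-HSC against 21.6 and 46.6 CPM in ST-HSC. For both kinases the replicates lay further apart than the groups, which overlapped. Hprt, which recycles hypoxanthine and guanine, was level at 106 to 114 CPM in LT-HSC and 98.5 to 125 CPM in ST-HSC (-0.01 ± 0.31 SE).

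Low values were most frequent in 1 library. Under 15 CPM, a bound chosen after the values were seen, LT-HSC 1 had 5 of the 35 members (Ada, Tk2, Rrm2, Ctps and Dck). LT-HSC 2 (Mthfd2) and ST-HSC 1 (Tk2) had 1 each, and ST-HSC 2 had 0. Of all 12569 tested genes, 3590 were under the bound in LT-HSC 1 and 3205 to 3377 in the other 3 libraries. LT-HSC 1 and LT-HSC 2 each gave the lowest value of 11 members (31.4%), against 27.2% and 29.0% of all tested genes.

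Levels can be compared between genes only per length, here as mean CPM over the 4 libraries per kilobase of the longest coding transcript in GENCODE M21. Nme2 (234), Paics (182) and Dtymk (159 CPM per kilobase) led the 35 members. Hprt, Dctd, Dctpp1, Adss and Impdh2 followed at 86.0 to 77.2 CPM per kilobase, and their library ranges overlap, so their order is not set. Cad (9.39), Dck (10.6) and Tk2 (11.7 CPM per kilobase) had the lowest means, but the order at the low end differed between libraries. In LT-HSC 1, Ada (0.136), Tk2 (1.335), Rrm2 (1.64), Ctps (3.22) and Dck (4.42) stood below Cad at 10.1 CPM per kilobase. In LT-HSC 2, Mthfd2 (3.44) and Gart (9.68) stood below Cad at 9.9 CPM per kilobase. In ST-HSC 1, Tk2 (5.03) and Dck (7.02) stood below Cad at 7.97 CPM per kilobase. In ST-HSC 2, Impdh1 was the lowest at 7.88 CPM per kilobase. Exons of Impdh2, Mthfd1 and Shmt2 overlap a gene on the other strand by 48, 37 and 32 bases. Among isozymes, Impdh2 stood above Impdh1 (77.2 and 37.9 CPM per kilobase), but in ST-HSC 1 Impdh1 was the higher one, and Ctps2 stood above Ctps in every library (44.6 to 54.5 against 3.22 to 40.3 CPM per kilobase).

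Ratios within a library compare the balance of 2 genes between the groups, because gene length cancels. With 2 libraries against 2, the smallest two-sided p of an exact permutation test is 0.33, so these are descriptions. Rrm2b, the p53-regulated small subunit used outside S phase, was at 52.0 and 41.9 CPM in LT-HSC against 36.0 and 42.7 CPM in ST-HSC. The log2 ratio of Rrm2 to Rrm2b was -3.53 and 0.64 in LT-HSC and 1.71 and 1.83 in ST-HSC, so Rrm2 made up less of the pair in both LT-HSC libraries. The ratio of Shmt1 to Shmt2 was 1.68 and 2.01 in LT-HSC and 1.10 and 0.35 in ST-HSC, higher in both LT-HSC libraries. Mthfd2 against Mthfd2l, its relative, gave 1.07 and -0.74 in LT-HSC and 3.77 and 2.61 in ST-HSC. Mthfd1 against Mthfd1l, its mitochondrial relative, gave 1.11 and 1.80 in LT-HSC and -0.20 and -0.22 in ST-HSC. In these pairs the cytosolic Shmt1 and Mthfd1 took more of the pair in LT-HSC. The ratios of Ctps to Ctps2, Impdh1 to Impdh2 and Prps1 to Prps2 overlapped between the groups.

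Pairs of successive or cooperating enzymes were added after the values were seen. Dhodh to Umps gave log2 ratios of 0.72 and 1.71 in LT-HSC and -3.25 and -1.26 in ST-HSC. Per kilobase, Dhodh stood at 86.1 and 89.1 CPM over Umps at 30.5 and 15.8 CPM in LT-HSC, and Umps at 87.6 and 82.1 CPM over Dhodh at 15.3 and 58.4 CPM in ST-HSC. Rrm1 to Rrm2 gave 4.20 and 1.43 in LT-HSC against 0.03 and 0.56 in ST-HSC. Paics to Ppat overlapped, at 2.89 and 1.67 against 1.69 and 0.94.

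**Figure D3:**
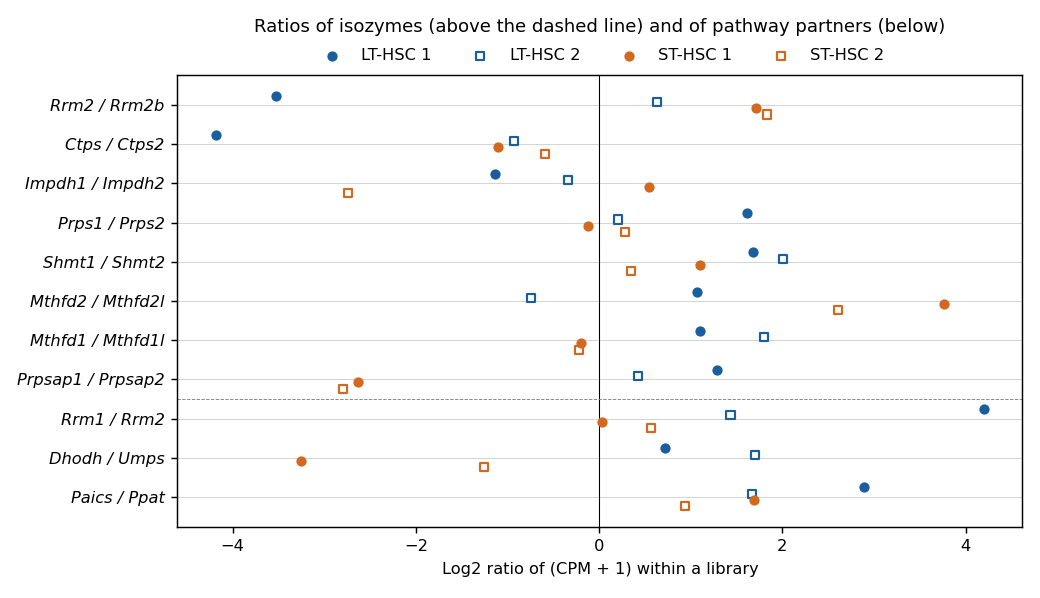
Log2 ratio of CPM + 1 of 2 genes within each library, 1 point per library, for 8 pairs of isozymes or related subunits above the dashed line and 3 pairs of pathway partners below it. The LT-HSC points (blue) and the ST-HSC points (orange) do not overlap for Rrm2 to Rrm2b, Shmt1 to Shmt2, Mthfd2 to Mthfd2l, Mthfd1 to Mthfd1l, Prpsap1 to Prpsap2, Rrm1 to Rrm2 and Dhodh to Umps.

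A further 69 genes of nucleotide and folate metabolism, none of them among the members, set the frame, and 66 had a row and 56 were tested. None passed (limma, 0 at an adjusted p under 0.05). Both LT-HSC libraries lay below both ST-HSC libraries for 12 of 56 (21.4%) and above for 9 (16.1%), again near 17.5% and 16.2% of all tested genes. Their median log2 fold change was -0.09. Mthfd1l, the mitochondrial formyl-folate synthetase, was at 21.9 and 25.8 CPM in LT-HSC against 69.5 and 56.3 CPM in ST-HSC (-1.36 ± 0.52 SE).

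The 3 enzymes of serine synthesis, which supplies the serine hydroxymethyltransferases, had negative log2 fold changes. Psat1, the aminotransferase, was at 156 and 109 CPM in LT-HSC against 233 and 398 CPM in ST-HSC (-1.22 ± 0.37 SE, adjusted p = 0.716 by limma). Phgdh, the first enzyme, and Psph, the last, were chosen after their values were seen, with log2 fold changes of -0.69 ± 0.34 (SE) and -0.75 ± 0.41 (SE). None of the 3 passed the test. Each had its LT-HSC libraries below both ST-HSC libraries, as had 17.5% of all tested genes, and since 2 of the 3 were picked for their values, nothing is read from that count.

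The regulatory partners of the phosphoribosyl pyrophosphate synthetases went opposite ways. Prpsap1 was at 149 and 43.3 CPM in LT-HSC against 19.3 and 19.6 CPM in ST-HSC (1.996 ± 0.75 SE), and Prpsap2 was at 60.4 and 31.9 CPM in LT-HSC against 125 and 142 CPM in ST-HSC (-1.57 ± 0.45 SE). Neither passed (adjusted p = 0.767 and 0.716 by limma), although no library crossed over for either gene. Their log2 ratio was 1.29 and 0.43 in LT-HSC and -2.63 and -2.79 in ST-HSC.

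Of the enzymes that degrade or interconvert purines, Ampd3, an AMP deaminase, was at 70.2 and 41.9 CPM in LT-HSC against 4.19 and 19.2 CPM in ST-HSC (2.43 ± 0.95 SE). Gda, guanine deaminase, was at 43.1 and 105 CPM in LT-HSC against 14.4 and 23.1 CPM in ST-HSC (1.83 ± 0.70 SE). Both were higher in both LT-HSC libraries, with adjusted p = 0.767 by limma for each. Mthfd2l was at 21.6 and 12.7 CPM in LT-HSC against 2.93 and 12.5 CPM in ST-HSC (1.27 ± 1.10 SE). Of these further genes, Psph shares 452 exonic bases with Cct6a, Rrm2b 260 with Gm49085, Ampd3 196 with B430319F04Rik and Prpsap1 48 with Gm11739. All these lie on the opposite strand in GENCODE M21, which leaves the values uncertain in the same way as those of Ppat and Paics. Ampd3 also shares 83 bases with Gm47282 on the same strand, where a strand setting would not separate them.

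**Figure D4:**
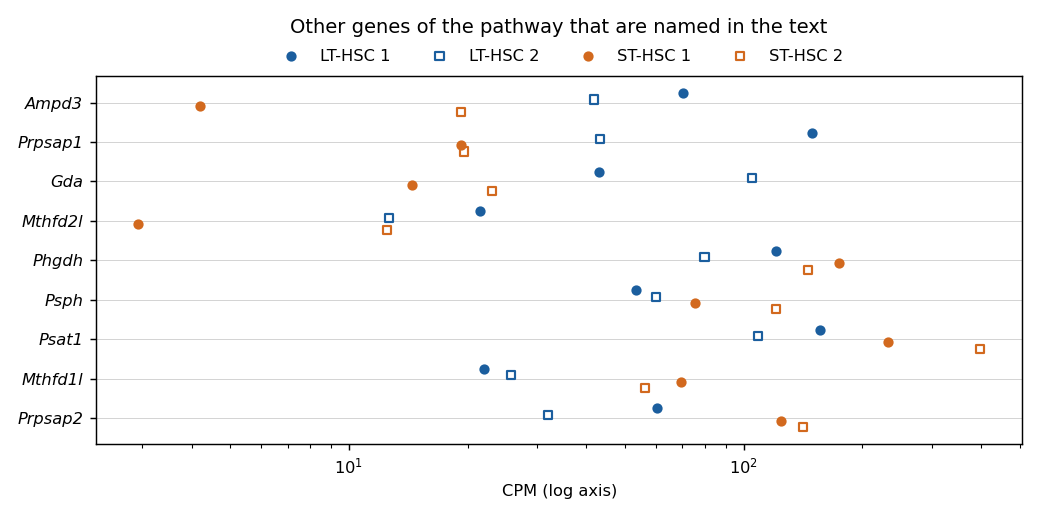
CPM on a log axis in each library for 9 further genes of nucleotide, folate and serine metabolism, ordered by log2 fold change from higher in LT-HSC (top) to lower in LT-HSC (bottom), with 1 point per library. For each gene the blue LT-HSC points lie on one side of the orange ST-HSC points, by 12.7 against 12.5 CPM at the nearest for Mthfd2l.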

How the data were processed

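RNA from 2000 sorted cells per library was amplified as cDNA with the SMARTer kit and sequenced with Illumina chemistry, per the labels' protocols. TopHat, without a version, and the mm9 build stand in the submitters' processing notes. Which counter, annotation, strand setting and filters were used is not given in the sources used here.

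The authors deposited log2 values. Their steps show log2 of reads + 1 per 1000000 library reads (all values up to 100 reads lay within 0.1 of a whole number, 100% in each library). Genes without a read raised to 1 read would look the same, so each count could be 1 higher. CPM were recomputed from them. The 12569 genes that reached 1 CPM in 2 or more libraries were tested as log2(CPM + 1) with limma 3.58.1 in R 4.3.3 (trend, robust), with Benjamini-Hochberg adjustment and a threshold of 0.05; fold changes of low genes are understated.

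The members and lists were chosen with earlier results of these data known. Every member is named, and of the other pathway genes those without overlap between groups and an absolute log2 fold change of at least 1. Some genes that this rule names are not reported here. Libraries of a group were not copies (chi-square over degrees of freedom 183 and 144). A floor of 3 reads is 0.186 to 0.229 CPM, and read numbers cover counting error only. The fit was tested on simulated data. The simulated spread between replicates was fixed and not taken from these libraries, so that test does not show the power here. Alternatives were another added value, filters, scaling, the replicate block, limma-voom and leaving out each library. Promoters and transcript lengths come from GRCm38.p6 RefSeq and GENCODE M21, a build other than that of the files, matched by symbol.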

Additional observations from a re-analysis of the deposited data

How the results depend on the processing

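No gene passed the adjusted threshold in any of the 10 alternatives, so none of the 35 members changed its call; the smallest adjusted p of a member in any of them was 0.552. With 1 library left out, genes at an unadjusted p under 0.05 numbered 245 to 366 higher and 149 (without ST-HSC 2) to 822 (without LT-HSC 2) lower. Genes without overlap then numbered 3630 to 4717 above and 4023 to 4626 below, and members 8 to 11 above and 12 to 16 below, because 3 libraries separate more easily than 4. Over the same fits the median log2 fold change ranged from -0.29 to -0.031 for all members, -0.44 to -0.26 for deoxynucleotide supply, -0.14 to 0.22 for purine, -0.26 to 0.21 for pyrimidine, -0.083 to 0.15 for one-carbon, -1.89 to 0.27 for salvage and -0.047 to 0.054 for all tested genes.

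The sign held in all 10 alternatives for 17 members and turned for 18 when 1 library was left out. The ranges were -0.997 to 0.094 for Rrm1, -0.87 to 0.024 for Dut, -0.76 to 0.050 for Dctd, -0.41 to 0.16 for Nme2, -0.23 to 0.60 for Prps1, -0.70 to 1.22 for Gart, -0.16 to 1.34 for Pfas, -0.22 to 0.23 for Adsl, -0.014 to 0.42 for Atic and -1.09 to 2.07 for Impdh1. They were -1.11 to 0.13 for Gmps, -0.14 to 0.094 for Adss, -3.17 to 0.14 for Ctps, -0.58 to 0.15 for Cmpk1, -0.15 to 0.76 for Mthfd1, -2.61 to 0.90 for Tk2, -1.17 to 0.60 for Dck and -0.17 to 0.16 for Hprt. Adsl also turned with limma-voom (-0.016) and Hprt with median-of-ratios scaling (0.015); the cause was not tested.

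With the replicate block, 0 genes passed. At an unadjusted limma p under 0.05, 394 genes were higher and 484 lower, against 361 and 453 without the block. The sources used here do not say whether libraries of the same number share an animal or a preparation. Their deviations correlated at 0.0518 across 12569 genes, which with 2 libraries per group cannot decide it. The block changed no call.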
